A study of Mus musculus with 4 samples.

Results

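The accessible regions of Runx1, Runx2, Runx3 and Cbfb were mapped by ATAC-Seq in blood-forming cells of control and Cpt1a-KO mice. Peaks that overlapped a gene body, or the 5000 bp on each side of it, were merged across libraries at an overlap of at least 1 bp. The 4 genes held 311 such regions, and 126 of these had a peak in at least 2 of the 4 libraries, out of 137553 such regions in the genome. Runx1 was selected on an earlier count in these data, in which it was among the genes with the most regions found in a single genotype, and its relatives were added as a family. The counts by genotype are therefore a description of the genes that such a selection returned.

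The control group was 2 libraries labelled WT, which the study's text describes as Cpt1a fl/fl mice. The KO group was 2 libraries of Cpt1a-KO mice, in which Vav1-Cre deleted the floxed Cpt1a, and the mice used in the study were adults of both sexes on a C57BL/6, CD45.2 background. Vav1-Cre acts throughout the hematopoietic system, so the deletion was not limited to stem cells, and whether the controls carried the Cre is not stated. The labels name the sorted cells ltHSC of bone marrow and the study's text names them HSPCs, and neither says whether the 2 libraries of a genotype came from separate mice, so the spread between them may be technical.

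RUNX proteins are transcription factors that bind DNA through a Runt domain, and CBFβ, the product of Cbfb, is the partner that does not bind DNA itself but strengthens their binding. Runx1 is required for the emergence of hematopoietic stem cells (HSCs), Runx2 for bone formation and Runx3 for the development of cytotoxic T cells and sensory neurons. Each Runx gene is transcribed from a distal promoter, known as P1, and a proximal promoter, known as P2, which give proteins with different amino termini. In blood cells Runx1 is also controlled by enhancers in the long intron between its promoters.

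The distal promoters of the family share a stretch of sequence. RefSeq promoter windows of GRCm38.p6, which run from 250 bases before a start to 50 bases after it, matched all 4 genes, with 2 starts each for Runx1 and Runx3 and 1 each for Runx2 and Cbfb. They are shown for the 3 distal-type starts that hold RUNX motifs and, for contrast, for a proximal Runx start and for Cbfb. The Runx1 distal window is chr16:92826025-92826324 (minus strand), the Runx2 window chr17:44814578-44814877 (minus), the Runx3 distal window chr4:135120395-135120694 (plus), the Runx1 proximal window chr16:92697280-92697579 (minus) and the Cbfb window chr8:105170424-105170723 (plus). The sequences run 5′ to 3′ on the gene's strand, and capitals mark the RUNX motif TGTGGT, which was searched on both strands and here always read as its complement ACCACA.
Runx1 distal: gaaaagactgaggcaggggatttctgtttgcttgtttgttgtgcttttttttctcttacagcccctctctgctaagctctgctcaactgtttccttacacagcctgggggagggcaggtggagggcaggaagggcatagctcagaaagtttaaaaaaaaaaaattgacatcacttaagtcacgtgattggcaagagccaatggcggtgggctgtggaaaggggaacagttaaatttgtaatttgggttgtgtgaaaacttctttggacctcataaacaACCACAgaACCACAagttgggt
Runx2 start: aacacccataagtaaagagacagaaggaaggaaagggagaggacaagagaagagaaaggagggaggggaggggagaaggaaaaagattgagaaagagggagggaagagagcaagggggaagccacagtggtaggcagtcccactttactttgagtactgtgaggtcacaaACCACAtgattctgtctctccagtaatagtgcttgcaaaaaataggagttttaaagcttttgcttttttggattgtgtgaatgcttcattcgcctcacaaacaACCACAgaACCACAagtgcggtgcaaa
Runx3 distal: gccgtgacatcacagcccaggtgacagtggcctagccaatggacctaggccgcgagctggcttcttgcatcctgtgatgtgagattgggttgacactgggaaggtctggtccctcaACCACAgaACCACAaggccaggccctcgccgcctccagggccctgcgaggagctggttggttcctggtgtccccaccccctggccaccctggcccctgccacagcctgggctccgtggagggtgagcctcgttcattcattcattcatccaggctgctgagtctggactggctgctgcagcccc
Runx1 proximal: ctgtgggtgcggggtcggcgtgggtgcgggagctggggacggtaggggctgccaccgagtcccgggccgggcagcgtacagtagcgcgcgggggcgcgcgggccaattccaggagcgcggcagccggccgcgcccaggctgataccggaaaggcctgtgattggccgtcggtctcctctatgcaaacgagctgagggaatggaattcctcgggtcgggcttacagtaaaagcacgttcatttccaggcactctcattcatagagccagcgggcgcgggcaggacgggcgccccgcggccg
Cbfb: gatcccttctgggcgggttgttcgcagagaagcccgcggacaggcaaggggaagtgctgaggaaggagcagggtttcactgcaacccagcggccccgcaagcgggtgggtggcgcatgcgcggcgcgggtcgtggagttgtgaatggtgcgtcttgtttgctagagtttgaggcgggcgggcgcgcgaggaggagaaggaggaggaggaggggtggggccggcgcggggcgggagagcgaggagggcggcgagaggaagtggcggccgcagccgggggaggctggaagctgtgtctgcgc

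An unbroken run of 18 bases with 2 RUNX motifs in tandem, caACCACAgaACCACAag, stood in the windows of the distal Runx1 start, the Runx2 start and the distal Runx3 start. It lay at bases 26 to 43 after the Runx1 start and at bases 21 to 38 after the Runx2 start, but at bases −136 to −119 from the Runx3 start. Of 32851 promoter windows, 4 held the run, those of the 3 Runx genes and of Gm16225, a noncoding gene that starts beside Runx3. Runx1 and Runx2 shared a longer run of 22 bases around it. TGTGGT occurred in 16.8% of all windows, and at least 2 copies in 1.81%. The Runx2 window held another copy, at bases −80 to −75. These are matches of letters and not measured binding.

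Both proximal windows and Cbfb lacked TGTGGT and were rich in CpG. The Runx1 proximal window held 35 CpG dinucleotides at 69.0% GC, the Runx3 proximal window 45 at 77.3% and the Cbfb window 30 at 69.7%. The distal windows of Runx1 and Runx2 held 2 CpG each at 45.0% and 45.3% GC, and that of Runx3 held 8 at 63.7%. GGGCGG, the GC box, occurred 4 times in the Cbfb window and 3 times in the Runx3 proximal window, and in 35.7% of all windows. The ETS letters CGGAAG and the GATA letters AGATAA, searched on both strands, occurred in none of the 6 windows of these genes, against 16.9% and 11.2% of all windows.

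The lists held 240881 to 277531 peak summits per library on the autosomes and X, each with a fold, the ratio of its signal to the local background of the same library, and no read counts, so the depth is unknown. The control lists held 117910 and 122934 summits whose −log10 q was 5 or more, KO 1 held 107797 and KO 2 held 84542, and called peaks covered 48.89 to 52.88 Mb in the controls against 42.58 and 44.35 Mb in the KO libraries. Regions of the 4 genes followed this, with 48530 and 46622 bp covered in the controls against 35970 and 39045 bp in KO 1 and KO 2. Its part in the differences of presence given here was not tested. A start peak was found in every library for 8 of the 9 HSC marker genes with a start in the table (Hoxa9 had none), for 2 of 3 B cell, 0 of 4 T cell, 2 of 4 neutrophil, 0 of 3 erythroid and 0 of 2 non-blood genes. The peaks in Cpt1a do not check the deletion, because exon positions were not used here.

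The Runx genes held more accessible regions than most genes, and Cbfb held fewer. Runx1 (chr16:92601466-92826074, minus strand) held 52 regions with a peak in 2 or more libraries, Runx2 (chr17:44495987-44814797, minus) 51, Runx3 (chr4:135120645-135177990, plus) 21 and Cbfb (chr8:105170674-105217989, plus) 2. The median over 17847 protein-coding genes with a region was 4, and Runx1 and Runx2 stood at the 99.8th percentile, Runx3 at the 96.3rd and Cbfb at the 19.9th. These ranks are of counts and are not corrected for gene length. The count of Runx1 includes its regions of a single genotype, the class on which it was chosen. Per 10 kb, Runx3 held the most of the 4 genes, with 3.12 regions against 2.22 in Runx1, 1.55 in Runx2 and 0.349 in Cbfb. Strength was measured as a percentile, the rank of a region's highest fold among all regions with a peak in the same library.

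**Figure D1:**
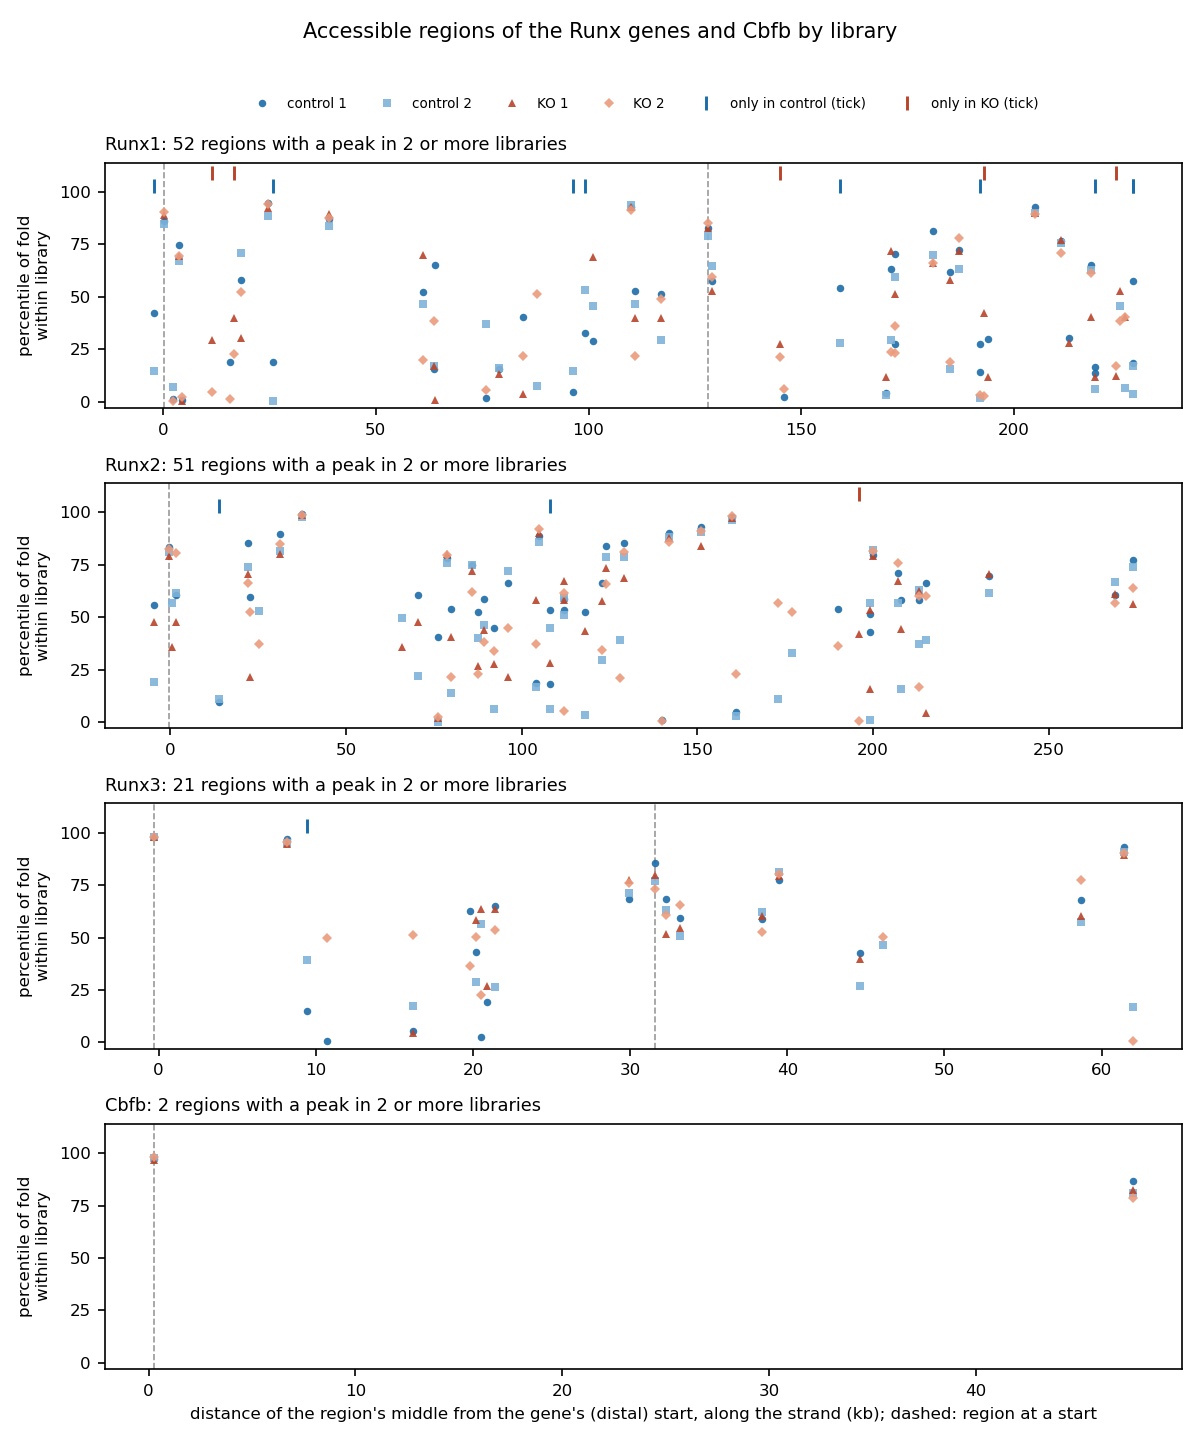
Regions with a peak in 2 or more libraries at Runx1 (52), Runx2 (51), Runx3 (21) and Cbfb (2), by the distance of the region's middle from the distal (or single) start in kb (x axis) and the percentile of its highest fold within each library (y axis). Symbols are the 4 libraries, ticks mark regions only in both controls or only in both KO libraries (some lie too close to be told apart), and dashed lines mark the regions at starts; the strongest regions have points from all 4 libraries close together and the ticks mostly stand over weak points.

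Both Runx1 starts were open in all libraries. The region at the distal start (chr16:92825465-92826510) reached the 86.4th and 84.8th percentiles in control 1 and control 2 against the 88.9th and 90.4th in KO 1 and KO 2. It contains the printed tandem RUNX motifs, its highest summits lay between bases −136 and −30 from the start, and both KO libraries stood above both controls by a few points. The region at the proximal start (chr16:92697166-92698942), 129 kb downstream along the gene, reached 83.0 and 79.1 in the controls against 83.0 and 85.4 in the KO libraries, so that control 1 and KO 1 were level to the printed decimal, with KO 1 higher by less than that. Counted from the start, its highest summit lay at base −84 in control 1 and −79 in KO 1, but at −1459 in control 2 and −1461 in KO 2. The libraries thus differed in which of 2 places held the highest summit, and the folds of the lower summits were not compared.

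The long interval between the Runx1 starts held 23 regions, and 9 of them had a peak in every library. The strongest of the gene (chr16:92715336-92716433, 110 kb from the distal start) stood at the 92.8th and 93.6th percentiles in the controls against the 92.9th and 91.4th in the KO libraries. A region 24.6 kb from the distal start (chr16:92800636-92802238), in the part of the intron where an HSC enhancer of Runx1 is known, stood at 94.8 and 88.8 in the controls against 92.2 and 94.3 in the KO libraries, with 6 to 8 summits per library. The groups overlapped at both.

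Another strong element in this interval (chr16:92786713-92787430, 39.0 kb) stood at 87.1 and 84.0 in the controls against 89.3 and 87.5 in the KO libraries, just above without overlap. Past the proximal start, the strongest of 22 regions (chr16:92620507-92621608, 205 kb from the distal start, within the last part of the gene) stood at 92.8 and 89.9 in the controls against 90.0 and 89.7 in the KO libraries. Control 1 was the highest there, and the other 3 libraries were level. Whether these regions lie in exons or introns was not resolved, except that the interval between the starts is intronic to the distal transcript for the most part.

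Cbfb, the shared partner, had a peak region at its start (chr8:105170118-105171790) near the top of all 4 lists, at 97.2 and 97.6 in the controls against 96.6 and 98.2 in the KO libraries. The other region (chr8:105217988-105218526, at the gene's end) stood at 86.6 and 81.1 in the controls against 82.6 and 78.8 in the KO libraries. The genotypes overlapped at both, and no region of Cbfb was found in a single genotype.

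At Runx3 the distal start was the strongest region (chr4:135119853-135120898), at 97.9 and 97.8 in the controls against 98.0 and 98.2 in the KO libraries. Both KO values lay above both controls, by 0.1 at the nearest, and the region also overlaps Gm16225, so the peak cannot be given to Runx3 alone. The proximal start, 31.9 kb further on (chr4:135151854-135152607), was weaker and more spread, at 85.6 and 77.2 in the controls against 79.7 and 73.3 in the KO libraries, and the genotypes overlapped.

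The remaining Runx3 regions complete its strongest 5 and none holds a start. One between the starts (chr4:135128251-135129350, 8.15 kb from the distal start) stood at 96.9 and 95.1 in the controls against 94.8 and 95.8 in the KO libraries, and one downstream of the gene (chr4:135181791-135182373) at 93.4 and 90.6 in the controls against 89.4 and 90.5 in the KO libraries. The last (chr4:135159691-135160641, 39.5 kb) stood at 77.7 and 81.3 in the controls against 79.6 and 80.3 in the KO libraries. Of these, the downstream region alone had both KO values below both controls, by 0.1 at the nearest.

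Runx2, known for its role in bone, held strong regions in these blood cells. The strongest (chr17:44776663-44777853, 37.4 kb inside the gene) stood at 99.2 and 97.8 in the controls against 98.9 and 98.9 in the KO libraries, but it overlaps the start of Supt3, a gene on the other strand that encodes a subunit of a histone acetyltransferase complex, and so cannot be counted as a Runx2 element. The next (chr17:44654386-44655120, 160 kb) stood at 97.6 and 96.4 in the controls against 97.1 and 98.2 in the KO libraries and overlaps no other gene of the table. The region at the Runx2 start (chr17:44814449-44815205), which Supt3 overlaps too, was weaker, at 83.5 and 81.3 in the controls against 79.0 and 82.4 in the KO libraries. None of the 3 separated the genotypes.

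Another 3 Runx2 regions complete the 5 of highest mean percentile. A region 151 kb from the start (chr17:44663809-44664331) stood at 92.9 and 90.5 in the controls against 83.8 and 90.9 in the KO libraries, with KO 1 apart from the rest. A region 105 kb from it (chr17:44709786-44710241) stood at 88.7 and 86.0 in the controls against 90.3 and 92.3 in the KO libraries, with KO above, and one at 142 kb (chr17:44672138-44673275) at 90.3 and 88.3 against 87.6 and 85.9, with KO below. Strong regions of the same gene thus stood on either side.

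**Figure D2:**
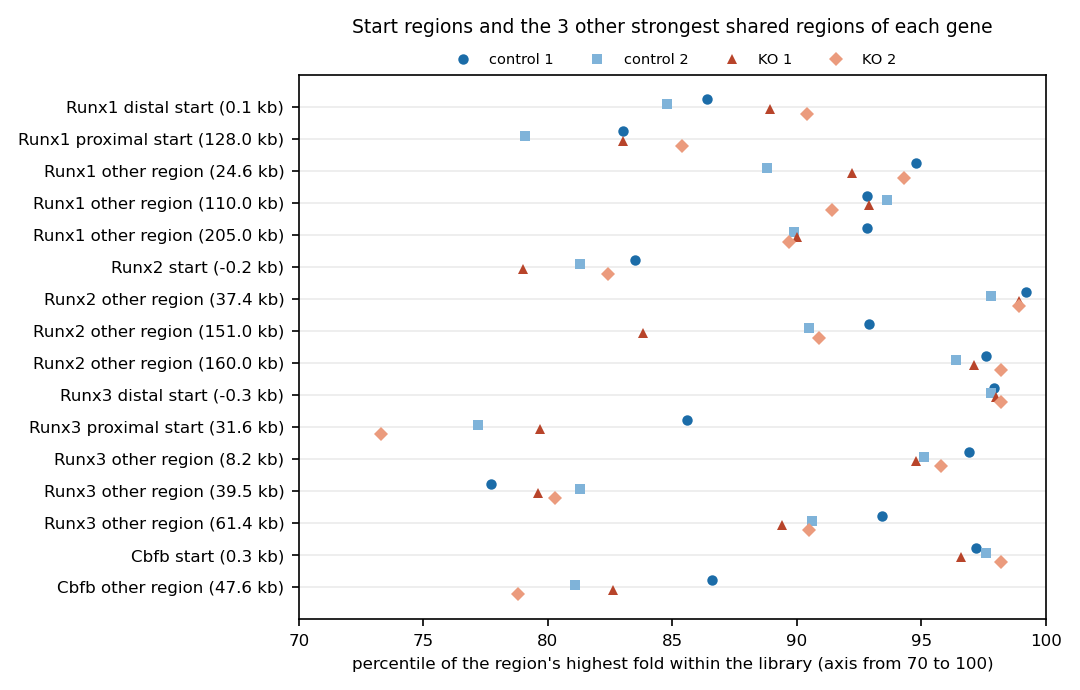
Percentile of the highest fold (x axis, from 70 to 100) in each of the 4 libraries for the regions at annotated starts and the 3 other strongest shared regions of each gene, with the distance from the distal or single start in kb. The start regions of Cbfb and the distal start of Runx3 lie above the 96th percentile in each library, and most rows show control and KO symbols interleaved.

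Most regions of Runx1 were not found in every library. Of its 52 regions, 20 (38.5%) had a peak in all 4 libraries, against 29 of 51 (56.9%) in Runx2, 14 of 21 (66.7%) in Runx3, both regions of Cbfb and 58.4% of all regions. The rest of Runx1 included 9 regions only in control and 5 only in KO. The class only in control took 6.05% of regions over the whole genome and the class only in KO 3.47%, against 12 and 6 of the 126 regions of the 4 genes. Runx2 had 2 of the control class and 1 of the KO class, and Runx3 1 and 0. These are the counts on which Runx1 was chosen, and nothing is read from its distance to the background.

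**Figure D3:**
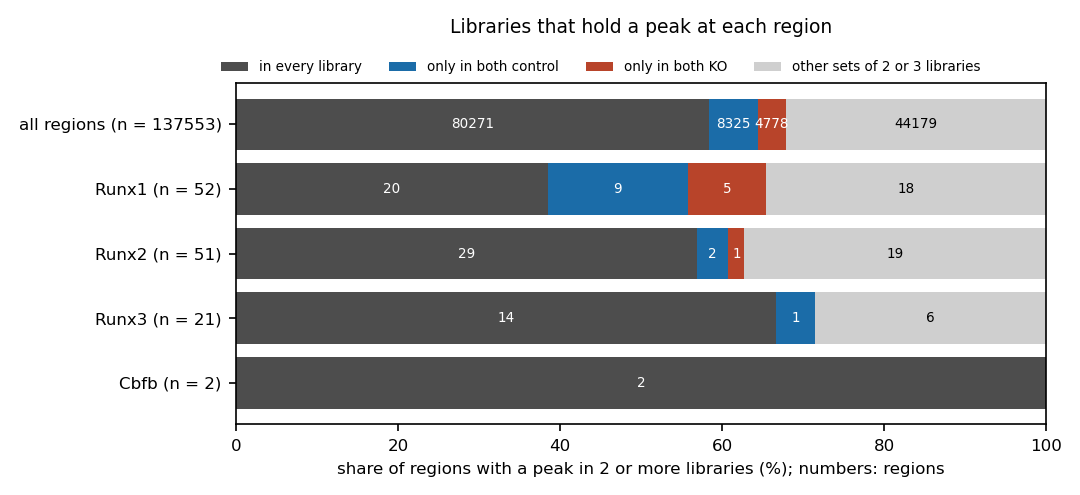
Share of regions with a peak in 2 or more libraries (x axis, %) by the libraries that hold them, for all regions and each gene, with the number of regions in each segment. Runx1 shows the smallest share in every library (20 of 52) with 9 in the control segment and 5 in the KO segment.

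The Runx1 regions found in 1 genotype were mostly weak. The 9 only in control lay between the 0.2nd and 57.6th percentiles, and the 5 only in KO between the 2.7th and 42.1st. By position, 3 of the 9 and 2 of the 5 lay between the starts, 3 and 3 past the proximal start, and 3 only in control in the flanks. No Runx1 start and none of its 5 strongest regions was among them.

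The strongest only in control (chr16:92726813-92727136, 99.1 kb from the distal start) stood at 32.8 and 53.1 in control 1 and control 2, with folds of 2.91 and 3.83. The next 2 stood at 54.1 and 27.9 (chr16:92666811-92667416) and at 57.6 and 3.8 (chr16:92597813-92597922, downstream of the gene). Within each, the controls differed from each other by over 20 points. The strongest only in KO (chr16:92809279-92809485, 16.7 kb) stood at 40.1 and 22.7 in KO 1 and KO 2, with folds of 2.96 and 2.78.

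The next pair only in KO, by strength, was read in full by the same rule, and the weaker ones are given only in ranges. One (chr16:92680522-92680734) stood at 27.5 and 21.3 in KO 1 and KO 2 and the other (chr16:92633259-92633474) at 42.1 and 2.7. The −log10 q of the 5 regions only in KO ran from 0.397 to 2.18, and that of the 9 only in control from 0.296 to 5.28, with 1 region reaching 5 or more.

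At the other genes the regions of a single genotype were of the same kind. Runx2 had 1 only in KO (chr17:44618828-44618981), at 42.2 and 0.5 in KO 1 and KO 2, and 2 only in control, at 18.1 and 6.3 (chr17:44706899-44707212) and at 9.7 and 10.8 (chr17:44800650-44800780, which lies in Supt3 too). Runx3 had 1 only in control (chr4:135129989-135130217), at 15.1 and 39.4. The medians over the 4 genes were 14.9 for regions only in control and 21.9 for those only in KO, beside 30.7 and 32.3 for such regions in the genome.

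With stricter lists the classes at Runx1 changed. When each list was reduced to its 100000 summits of highest −log10 p, Runx1 held 11 regions and all 11 were in every library, with none in either class of 1 genotype. In lists of that length 72.1% of all regions were in every library, 2.75% in the control class and 3.11% in the KO class, so few of 11 regions would fall in those classes at the genome’s share. When only summits whose −log10 q was 5 or more were kept, Runx1 held 15 regions, of which 10 were in every library, 3 in the controls alone and 0 in the KO libraries alone. These 3 (chr16:92608261-92608385, chr16:92653877-92654261 and chr16:92714884-92715031) had peaks of lower score in the KO libraries. At that threshold the control class took 7.02% of all regions and the KO class 0.807%. Of the 5 Runx1, 6 Runx2 and 3 Runx3 regions then outside the class of every library, KO 2 alone lacked a peak at 1, 4 and 1, and KO 2 also had the fewest summits of that score in the genome.

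The 65 regions in every library were also compared by rank. Both KO percentiles lay above both controls at 9 regions (13.8%, against 19.0% of all shared regions) and below at 15 (23.1%, against 17.8%), and at 41 they overlapped. By gene, KO was above at 3 and below at 5 of 20 Runx1 regions, above at 3 and below at 8 of 29 Runx2 regions, above at 3 and below at 2 of 14 Runx3 regions, and overlapping at both of Cbfb. The median KO minus control percentile was −1.1 in Runx1, −2.8 in Runx2, 2.7 in Runx3, −1.6 in Cbfb and 0.1 over all shared regions. The median absolute difference was 5.5 points from control 1 to control 2 and 6.4 from KO 1 to KO 2, beside 5.2 and 5.6 over all shared regions. From one genotype mean to the other it was 4.6, beside 4.3 over all, and a difference of means of 2 libraries is smaller by construction than one of single libraries.

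The Runx1 regions without overlap differed in strength. The 3 with KO above were both starts and the 39.0 kb region already described. The 5 with KO below were all of lower mean percentile, and the largest difference was at a region 18.2 kb from the distal start (chr16:92807383-92808304), with 57.8 and 71.1 in the controls against 30.6 and 52.4 in the KO libraries. Naming these regions followed a look at their values.

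Runx2 held the widest differences of rank in either direction, none of them at its strongest regions. KO was highest over control at chr17:44710444-44710749, 104 kb from the start, with 18.5 and 16.9 in the controls against 58.3 and 37.0 in the KO libraries. The folds there were 2.55 and 2.56 in the controls against 3.66 and 3.07 in the KO libraries. Among regions of low fold, a small difference of fold thus moves a percentile far. This region at 104 kb lies beside the strong region at 105 kb, where KO also stood above. Of the Runx3 regions, the largest difference was between its starts (chr4:135140724-135140978), with 42.9 and 29.0 in the controls against 58.3 and 50.2 in the KO libraries. Both were picked for the size of their difference, and neither passed the fit described next.

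In width and strength the shared regions of the Runx genes were close to or below the genome's. The median width was 444 bp in Runx1, 456 bp in Runx2 and 562 bp in Runx3, beside 526 bp over all shared regions, and the 2 of Cbfb had a median of 1106 bp. Their median percentile was 64.4, 67.7 and 63.4 in the Runx genes and 89.8 in Cbfb, beside 74.2 over all. By median percentile the shared regions of each Runx gene thus ranked below those of the genome, and those of Cbfb ranked above. Peaks whose −log10 q was 5 or more in all 4 libraries made up 10 of 20 shared regions in Runx1, 11 of 29 in Runx2, 9 of 14 in Runx3 and both of Cbfb. In lists held to that score, 32 regions of the 4 genes and 43283 of the genome were in every library. The full lists held 65 and 80271. The stricter lists were merged anew, so this compares the genes with the genome only roughly.

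The log2 fold was also compared in a fit across all 80271 shared regions (limma, quantile-normalized log2 fold, Benjamini-Hochberg adjustment over all of them). As the same contrast chose Runx1, its values are a description. Called regions at an adjusted p under 0.05 made up 0% of those tested, and the smallest adjusted p in the genome was 0.28. At an unadjusted p under 0.05, 3.54% of all regions were higher and 4.06% lower in KO, against 0 and 2 of the 65 regions of the 4 genes. An exact permutation test of a single region with 2 against 2 libraries cannot give a two-sided p below 0.333, so none was made.

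The 3 regions of smallest p all lay in Runx2. At chr17:44718066-44718962, 96.1 kb from the start, the percentiles were 66.2 and 72.0 in the controls against 21.4 and 44.7 in the KO libraries, and the log2 difference was −0.73 (SE 0.29, limma adjusted p = 0.61). At chr17:44690508-44690922 they were 83.8 and 78.9 against 73.6 and 66.0, with a log2 difference of −0.57 (SE 0.26, limma adjusted p = 0.65). At chr17:44792029-44792836, within Supt3 too, they were 85.5 and 74.1 against 70.5 and 66.5, with −0.57 (SE 0.27, limma adjusted p = 0.66). Both KO libraries were below both controls at each, and none passed the adjustment.

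At the annotated starts the log2 differences were small beside their intervals. The proximal promoter of Runx2 had no window here and was not mapped. The difference was 0.25 at the distal Runx1 start (95% interval −0.16 to 0.67), 0.15 at the proximal one (−0.33 to 0.63) and −0.11 at the Runx2 start (−0.61 to 0.38). For Runx3 it was 0.03 at the distal start (−0.21 to 0.27) and −0.29 at the proximal one (−0.82 to 0.24), and for Cbfb −0.00 (−0.26 to 0.26). Over the shared regions the median was −0.03 in Runx1, −0.09 in Runx2, 0.09 in Runx3 and −0.11 in Cbfb, against 0.00 over all regions, with median standard errors of 0.18 to 0.27. An interval of this width cannot tell a small change at a single region from none.

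**Figure D4:**
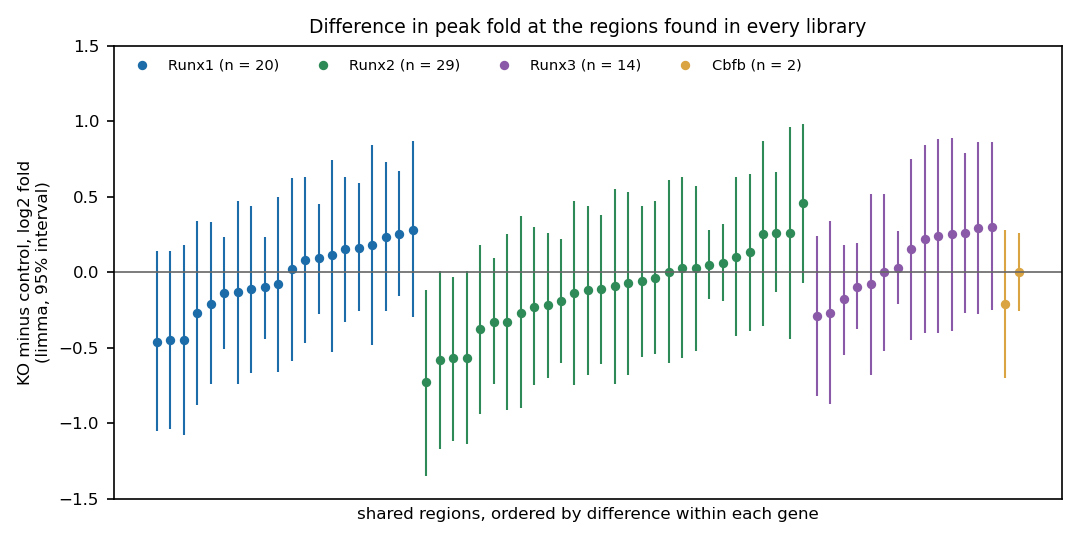
KO minus control log2 fold (y axis, limma estimate with its 95% interval) at the 20 Runx1, 29 Runx2, 14 Runx3 and 2 Cbfb regions found in every library, ordered within each gene. Estimates run from −0.73 to 0.46, both in Runx2, and nearly all intervals span 0.

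The genes whose mix of presence classes was most like that of Runx1, by Euclidean distance between the percentages in the 4 classes over 807 genes with at least 20 regions, were Galnt7 (distance 1.15), Frs2 (2.83), Fnip2 (6.82), Hectd4 (7.59) and Chd5 (7.61). Galnt7 had 9 of 23 regions in every library, with 4 in the control class and 2 in the KO class. Their counts are small, so the likeness rests on a few regions each.

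The genes that work with RUNX proteins were read as a list. The 12 cofactors, from the corepressors of the ETO and TLE families to the acetyltransferase Ep300, held 127 regions, with 73 in every library, 7 in the control class and 3 in the KO class. The 9 partner factors, such as Gata2, Tal1, Erg and Spi1, held 139, with 74, 12 and 3, and the 7 targets 37, with 29, 1 and 0. For all 28 genes, the control class took 6.60% of 303 regions and the KO class 1.98%, beside the genome's 6.05% and 3.47%. Both KO percentiles were above both controls at 40 and below at 21 of their 176 shared regions, beside 19.0% and 17.8% of all shared regions.

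Within these lists, the start of Tle1, a corepressor that RUNX proteins recruit, stood at 95.9 and 96.4 in the controls against 95.8 and 97.1 in the KO libraries. Tal1, a factor that acts with Runx1 in blood stem cells, stood at 90.0 and 88.8 at its start in the controls against 92.4 in both KO libraries, without overlap. The strongest region of Csf1r, a receptor gene that RUNX1 activates, stood at 95.6 and 92.5 in the controls against 92.4 and 85.4 in the KO libraries, with KO below. These 3 were named after their values were seen.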

How the data were processed

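Sorted cells gave 2 control and 2 Cpt1a-KO ATAC-Seq libraries. The submitters' processing notes name Bowtie2, MACS2 and mm10, with no versions. Peaks were called per library, and the lists the authors deposited give each summit's fold (a ratio to local background), −log10 p and −log10 q, all with a −log10 p of 2.0 or more. The deposited score column was not used. No read counts are given, so depth and its precision are unknown, and the edgeR test on reads that the study's methods describe was not made here. Summits written as chromosome positions (253 to 492 per list) were read as such.

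Intervals on the autosomes and X were merged (Python 3.11.15, pandas 2.3.3, numpy 2.4.6), and ranks were taken within each library with mean ranks for ties. Log2 fold was quantile normalized and fitted with limma 3.58.1 (R 4.3.3; trend, robust, two-sided), after tests on simulated data. Gene positions and promoter windows were RefSeq's for GRCm38.p6, with no exons. Regions named are those at starts, the 5 strongest per gene, the 3 strongest of each genotype class per gene and the 3 of smallest p. Also named, after their values were seen, were 3 regions with large differences of rank, the 3 Runx1 regions only in control in stricter lists, and Tle1, Tal1 and Csf1r. The genes, lists and tests were chosen with earlier results of these data known. Alternatives were stricter or equal-length lists, other overlaps, flanks, measures and normalizations, a replicate block and each library left out.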

Additional observations from a re-analysis of the deposited data

How the results depend on the processing

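The counts of presence depended on which peaks were kept, while the absence of limma calls at these genes did not. That absence says little about changes of the size estimated here, which ran from −0.73 to 0.46. In simulated data with 1 spread for all regions, the fit recovered 0.5% of planted log2 changes of 0.5 and 84% of those of 1. The real spread was not uniform, with standard errors from 0.11 to 0.34 at the shared regions of these genes. Recovery of real changes can therefore be lower than in the simulation and was not measured. Regions of the 4 genes only in control numbered 12 (6.05% of all regions were in this class), and 4 at a −log10 q of 5 or more (7.02% of all), 1 with the 100000 strongest summits (2.75%) and 6 with lists of equal length (240881 summits, 4.75%). Regions only in KO numbered 6 of 126 (4.76%, against 3.47% of all). At a −log10 q of 5 or more they were 0 of 46 (against 0.807%), and with the 100000 strongest summits 0 of 38 (against 3.11%). They were 3 of 98 with a covered share of at least 0.5 (3.06%, against 3.89%). With windows of 200 bp around summits they were 3 of 117 (2.56%, against 3.89%). With lists of equal length regions only in KO stayed at 6 (3.90% of all), as many as the regions only in control. In Runx1 the lists of equal length held 4 regions only in control and 5 only in KO, against 9 and 5 in the full lists. The excess of regions only in control was thus absent in lists of equal length. Regions in every library numbered 65 of 126 (51.6%, against 58.4% of all). Their share rose to 32 of 46 at a −log10 q of 5 or more (69.6%, against 67.6%). It was 33 of 38 with the 100000 strongest summits (86.8%, against 72.1%) and 37 of 98 with the covered share (37.8%, against 39.6%). Stricter lists hold fewer regions by construction. KO was above both controls at 9 of 65 regions (19.0% of all), and at 5 of 65 when ranked by −log10 p (19.2%). It was below at 15 of 65 (17.8%), and at 7 of 33 with the 100000 strongest summits (17.1%). With fewer libraries a class needs fewer peaks, so leaving out each library in turn gave 14 to 66 only in control, 8 to 50 only in KO, 67 to 78 in every library left, 13 to 25 with KO above and 22 to 36 with KO below. By library, only in control came to 63 of 167 without control 1, 66 of 168 without control 2 and 24 of 163 without KO 1 (27.7%, 34.5% and 9.59% of all). Only in KO came to 50 of 163 without KO 1 and 50 of 154 without KO 2 (33.7% and 32.8%). KO above came to 25 of 67, 20 of 68 and 18 of 78 without control 1, KO 1 and KO 2 (39.3%, 34.7% and 36.7% of all). KO below came to 36 of 69, 26 of 68 and 31 of 78 without control 2, KO 1 and KO 2 (37.7%, 36.3% and 32.5%). The genome’s shares moved with the settings too. A flank of 1000 bp or none left 9 only in control and 6 only in KO.

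No region of the 4 genes passed an adjusted p of 0.05 by limma under any of 9 alternatives, at smallest adjusted p-values of 0.45 to 0.98. With the replicate number as a block, 0 regions of these genes and 50 of all regions (18 higher, 32 lower) passed; deviations of same-numbered libraries correlated at 0.00, so the numbers were not taken to pair them. The fit on log2 of −log10 p gave 1 region in the genome. The labels and lists give no depth, which limits each statement on an absent peak: a missing peak may be an uncalled one.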

Other observations

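Of 311 regions at the 4 genes, 185 had a peak in a single library, which no comparison used: 50 in control 1, 50 in control 2, 41 in KO 1 and 44 in KO 2. Over the genome 200223 of 337776 regions were of this kind, 53898 in control 1, 35794 in control 2, 54619 in KO 1 and 55912 in KO 2. In Runx1 they numbered 20, 27, 22 and 13, and in Runx2 25, 18, 13 and 26. The library with the fewest was thus KO 2 in Runx1, KO 1 in Runx2 and control 2 in the genome. Around the targeted gene Cpt1a, 18 regions had a peak in at least 2 libraries, with 11 in every library, 2 only in control and 0 only in KO. These classes took 58.4%, 6.05% and 3.47% of all regions.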
